A study of Mus musculus with 6 samples.

Results

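The 28 genes described here encode 18 enzymes of cholesterol synthesis, 5 proteins of the sterol-sensing SREBP system and 5 genes of sterol transport and of the liver X receptors (LXR). They were listed by name and found among the 21603 genes of the expression tables through their Ensembl identifiers in GENCODE M21. The RNA was bound to tagged ribosomes of lung pericytes, the mural cells that wrap capillaries, in mice that kept a copy of YAP1 and TAZ and in mice deleted for both, the transcriptional coregulators at the end of the Hippo pathway that are encoded by *Yap1* and *Wwtr1*.

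Cholesterol is built from acetyl-CoA, with its later steps in the endoplasmic reticulum. The first steps give mevalonate and then the isoprenoid farnesyl pyrophosphate, which also feeds protein prenylation. Squalene is the first intermediate committed to sterols, it is closed into the ring system of lanosterol, and lanosterol is trimmed and rearranged into cholesterol. When sterols are scarce, SCAP escorts the membrane-bound transcription factors SREBP1 and SREBP2 to the Golgi, where proteolysis frees their active part and the genes of synthesis and uptake are switched on. When sterols are plentiful, INSIG proteins hold SCAP back, and oxysterols activate LXR, which raises genes of cholesterol export. In the developing lung the pathway is best known from surfactant-producing alveolar type 2 cells, and every growing cell uses it for membranes.

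Lungs were taken at postnatal day 8 from 3 control and 3 *Yap1*,*Wwtr1* iPCKO mice of the C57BL/6 strain, where iPCKO means inducible knockout in pericytes. All 6 mice carried the tamoxifen-inducible *Pdgfrb*(BAC)-CreERT2 transgene, whose recombinase is made where *Pdgfrb* is active, and the RiboTag allele of Rpl22, which adds a haemagglutinin tag to ribosomes after recombination, and tamoxifen was given in the first days after birth. The controls, *Yap1*+/- and *Wwtr1*+/- by their labels, were heterozygous for the loxP-flanked alleles and so could lose 1 copy of each gene, and the iPCKO mice, labelled -/- for both, were homozygous. Ribosome-bound RNA was pulled down with an anti-tag antibody and sequenced, mice were used irrespective of sex, and the values are RPKM, which scale a gene's read number by its exon length and by the depth of the library.

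Read depth, estimated from the steps between low RPKM values, was 17.4 to 34.7 Mreads (1e6 reads) in the controls and 14.2 to 39.6 Mreads in the mutants, with iPCKO 3 the shallowest library, and about 102 to 6482 reads stood behind each value of a tested member. *Yap1* was at 13.2, 11.5 and 12.3 RPKM in control 1, 2 and 3 and at 5.76, 5.83 and 5.25 RPKM in iPCKO 1, 2 and 3 (log2 fold change -1.12, SE 0.09, adjusted p = 0.00017, limma on log2(RPKM + 0.1)). *Wwtr1* was at 71.2, 53.8 and 56.1 RPKM in the controls and 63.5, 60.3 and 62.2 RPKM in the mutants (log2 fold change 0.05, SE 0.12, adjusted p = 0.82), a value over the whole gene, and which exons its loxP sites flank is not given in the sources used here. By western blot the authors reported strongly reduced YAP1 and TAZ protein in mutant whole-lung lysates, at a later age and against Cre-negative littermates. Of the 12 pericyte markers none was at 0 in every library, and their summed level was 4939 to 5990 RPKM in the controls and 4712 to 5564 RPKM in the mutants, with *Pdgfrb* at 1193 to 1666 RPKM over all 6 libraries. Of these 12, 6 passed the thresholds (50%, against 6.79% of all genes), named here after their values were seen. *Cspg4*, *Kcnj8* and *Abcc9* were higher in the mutants (log2 fold change 1.06, 1.03 and 1.15), and *Notch3*, *Rgs5* and *Mcam* were lower (-0.94, -1.15 and -1.04). Markers of some other cells moved with the groups. The median log2 fold change was -0.01 for endothelial, -0.04 for smooth muscle, 0.09 for alveolar type 1 and 0.13 for fibroblast markers. Of these lists 1 of 9, 3 of 7, 1 of 6 and 2 of 9 passed (11.1%, 42.9%, 16.7% and 22.2%, against 6.79% of all genes). All 10 neutrophil markers and 9 of 10 leukocyte markers were higher in every mutant than in any control, against 18.3% of all genes. Their summed levels were 87.1 to 129 against 449 to 4949 RPKM and 58.6 to 81.9 against 150 to 260 RPKM. All 10 of each list were highest in iPCKO 3, next in iPCKO 2 and lowest of the mutants in iPCKO 1, and none of these markers was at 0 in all libraries. Platelet markers were higher in every mutant in 6 of 7 tested and highest in iPCKO 3 in 6, with a summed level over the 8 listed of 12.99 to 14.6 RPKM in the controls and 34.0 to 78.9 RPKM in the mutants, and none at 0 in all libraries. In RNA pulled down from whole lung, a change in the number of cells of a type and in RNA per cell cannot be told apart. None of the 6 libraries is of lung RNA before the pulldown, and how much of these markers came from tagged ribosomes was not tested. Transcripts of the Y chromosome had a mean log2 level of 2.95 and 3.17 in control 1 and 3, and of -3.14 in control 2 and -3.21 to -3.11 in the mutants.

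The promoters of 23 of the 28 genes are in the RefSeq table used here, as windows of 300 bases that begin 250 bases before a start site. *Abcg1*, *Fdps*, *Fdft1*, *Stard4* and *Sqle* are not among them. Each window was searched on both strands for the sterol regulatory element TCACNCCAC, to which SREBPs bind, the CCAAT box of NF-Y and the GGGCGG box of Sp1, the usual partners of SREBP at sterol genes, and the CATTCC motif of TEAD, the DNA-binding partner of YAP1 and TAZ. The sterol regulatory element was found in 1 of the 23 genes (4.35%), *Hmgcs1*, against 1.26% of 9417 tested genes with a promoter in the table. CCAAT was in 18 of 23 (78.3%), among them 14 of the 15 enzymes with a window, against 42.7%. GGGCGG was in 20 of 23 (87.0%) against 69.8% and CATTCC was in 0 of 23 against 14.3%. These are matches of letters in a short window, and where there is none these letters are only not in that window. The windows below are those of *Hmgcs1*, the gene with a sterol element, of *Idi1* and *Insig1*, which were far highest in iPCKO 3, and of *Scap*, the gene of the 28 that passed the test. They lie on GRCm38.p6 at chr13:119690101-119690400, chr13:8885356-8885655, chr5:28071162-28071461 and chr9:110333038-110333337, all on the plus strand and written 5′ to 3′. Capitals mark the sterol regulatory element and CCAAT boxes, read as ATTGG where they lie on the other strand.
Hmgcs1: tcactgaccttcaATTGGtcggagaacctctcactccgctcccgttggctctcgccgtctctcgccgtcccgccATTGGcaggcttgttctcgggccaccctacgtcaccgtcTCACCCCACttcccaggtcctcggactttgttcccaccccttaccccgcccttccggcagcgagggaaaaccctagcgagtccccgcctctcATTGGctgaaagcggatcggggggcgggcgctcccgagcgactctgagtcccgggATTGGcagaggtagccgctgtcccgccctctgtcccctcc
Idi1: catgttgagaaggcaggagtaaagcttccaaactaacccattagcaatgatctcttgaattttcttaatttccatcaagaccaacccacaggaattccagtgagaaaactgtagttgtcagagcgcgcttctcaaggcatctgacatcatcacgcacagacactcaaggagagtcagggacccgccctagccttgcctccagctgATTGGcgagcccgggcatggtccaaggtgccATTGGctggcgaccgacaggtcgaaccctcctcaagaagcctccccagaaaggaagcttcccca
Insig1: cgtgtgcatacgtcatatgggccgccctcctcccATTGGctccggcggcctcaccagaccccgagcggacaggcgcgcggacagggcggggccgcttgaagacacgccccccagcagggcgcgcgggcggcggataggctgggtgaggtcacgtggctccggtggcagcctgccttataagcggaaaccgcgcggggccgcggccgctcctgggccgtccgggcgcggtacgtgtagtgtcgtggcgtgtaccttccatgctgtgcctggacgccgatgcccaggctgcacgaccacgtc
Scap: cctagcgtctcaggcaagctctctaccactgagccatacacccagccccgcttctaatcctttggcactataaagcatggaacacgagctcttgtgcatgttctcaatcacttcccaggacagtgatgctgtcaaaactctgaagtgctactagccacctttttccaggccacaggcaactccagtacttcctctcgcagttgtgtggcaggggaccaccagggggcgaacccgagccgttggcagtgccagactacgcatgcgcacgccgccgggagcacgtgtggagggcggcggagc
The element of *Hmgcs1* reads TCACCCCAC and spans bases 114 to 122 of its window. *Hmgcs1* has 4 CCAAT boxes, *Idi1* has 2, *Insig1* has 1 and *Scap* has 0, and the matches in these windows do not overlap one another.

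Of the 28 genes, 27 passed the filter on low values, and 1 of them, *Scap*, passed both thresholds (adjusted p under 0.01, log2 fold change over 0.5 in size) and rose, which is 3.7% of the tested members against 6.79% of all 12034 tested genes. At an adjusted p below 0.05 with no minimum fold, *Scap*, *Ebp* and *Abcg1* passed (11.1% against 15.2% of all genes), all higher in the mutants. Neither share lies above that of all genes. At this looser threshold *Ebp* still passed without iPCKO 3 (adjusted p = 0.042) but not without any other library (0.059 to 0.082), *Abcg1* did not pass with any library left out (0.05 to 0.15, rounded), *Insig2* passed without control 1 (0.044), and *Idi1*, *Hsd17b7* and *Stard4* joined *Scap* when iPCKO 2 was left out, which made 4. At an unadjusted p below 0.05 the count was 9 of 27 (33.3%, against 29.7% of all genes). Of the 27 log2 fold changes 23 were positive and 4 negative, with a median of 0.28 against 0 over all tested genes. The mutants differed more among themselves for these genes than for most. The SD of log2 values within the mutants had a median of 0.306 over the tested members and 0.349 over the enzymes, against 0.126 over all genes, while in the controls it was 0.155 and 0.161 against 0.132.

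**Figure D1:**
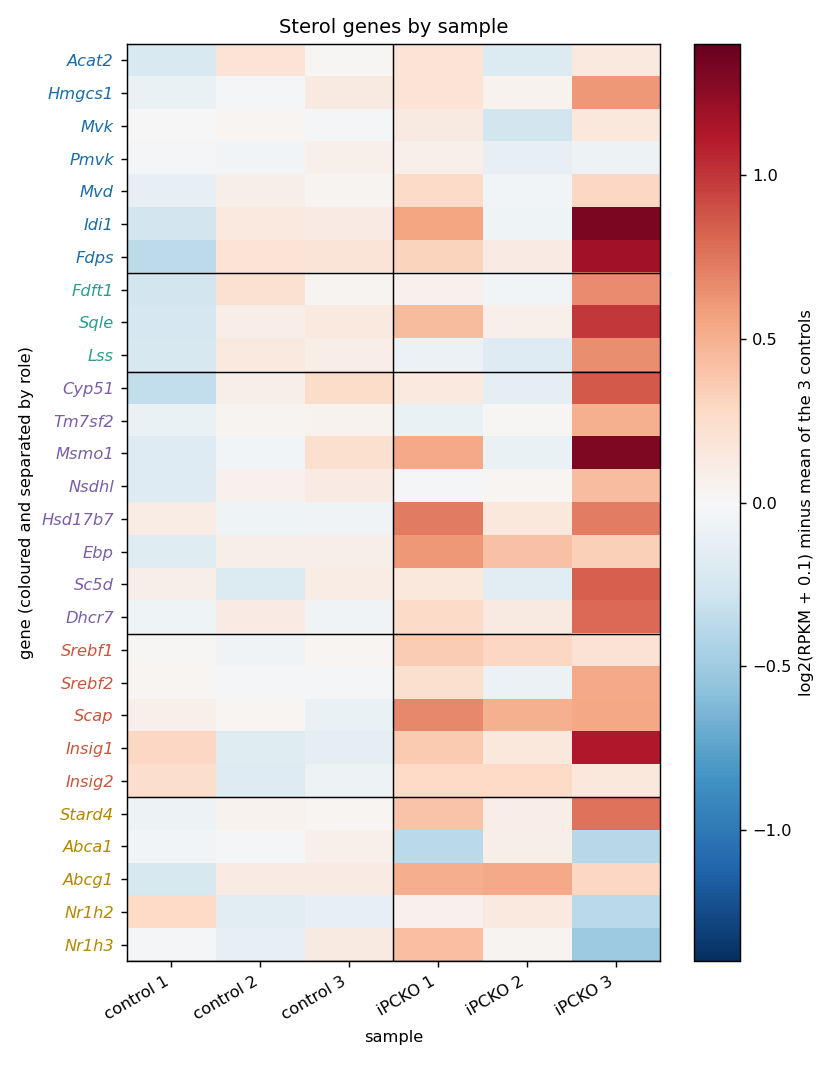
Level of each of the 28 sterol genes in each library, as log2(RPKM + 0.1) minus the mean of the 3 controls, with genes in rows coloured and separated by role and the 6 samples in columns. The column of iPCKO 3 is the darkest red for most enzymes and for *Insig1*, control 1 is pale blue for most enzymes, iPCKO 2 stays near the control level, and *Scap*, *Ebp*, *Srebf1* and *Abcg1* are red in all 3 mutants.

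Over the 17 enzymes tested, none passed the thresholds, against 6.79% of all genes, and so short a list would hold few calls. At an adjusted p below 0.05, 1 passed (5.88%, against 15.2% of all genes), and 4 had an unadjusted p below 0.05 (23.5%, against 29.7%). Their median difference from the control mean was 0.19 on the log2 scale in iPCKO 1, -0.04 in iPCKO 2 and 0.66 in iPCKO 3, where the median over all genes was 0.03, 0.01 and -0.03. In iPCKO 3, 13 of the 17 (76.5%) had their highest value of the 6 libraries, against 15.7% of all genes. At the other end, 13 of 17 (76.5%) had their lowest value in control 1, against 19.7% of all genes. The order iPCKO 3 above iPCKO 1 above iPCKO 2 was found in 12 of 17 enzymes (70.6%, 8.77% of all genes), and iPCKO 2 was below iPCKO 1 in 16 of 17 (94.1%, 54.0% of all genes). The order of the leukocyte and neutrophil markers, iPCKO 3 above iPCKO 2 above iPCKO 1, was found in 1 of the 17 enzymes (5.88%, 18.1% of all genes). Counted by library, iPCKO 1 was above all 3 controls in 11 of 17 enzymes (64.7%, against 35.6% of all genes), iPCKO 2 in 3 (17.6%, against 31.8%) and iPCKO 3 in 15 (88.2%, against 30.9%). Without iPCKO 3 the enzymes' median log2 fold change was 0.11 and that of the tested members 0.20. The 6 erythrocyte markers had another order, with a sum of 6024, 1368 and 2549 RPKM in iPCKO 1, 2 and 3 against 2220 to 2779 RPKM in the controls, lowest in control 1, and none at 0. The part of these cells, of the shallow depth of iPCKO 3 and of sex in the pattern was not tested.

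The mevalonate steps hold 7 genes, and none of them passed the test, against 6.79% of all genes, which is no result in so short a list. *Hmgcs1*, the cytosolic HMG-CoA synthase and the most abundant enzyme of the set on the RPKM scale, was at 25.3, 26.6 and 29.5 RPKM in the controls and 30.9, 28.04 and 41.4 RPKM in the mutants (log2 fold change 0.28, SE 0.14, adjusted p = 0.23). The groups overlapped through iPCKO 2, and without iPCKO 3 the log2 fold change was 0.12. *Idi1*, the isopentenyl diphosphate isomerase, had levels of 2.5, 3.32 and 3.27 RPKM in control 1, 2 and 3, and of 4.47, 2.88 and 7.64 RPKM in iPCKO 1, 2 and 3 (log2 fold change 0.60, SE 0.30, adjusted p = 0.22). It had the highest positive fold change of the set and a wide interval, -0.08 to 1.29, and iPCKO 3 stood 2.32-fold above the mean of the other 5 libraries and iPCKO 2 lay inside the control range. *Fdps* makes farnesyl pyrophosphate, the branch point to prenyl groups, and had the same shape. Its levels were 13.9, 20.5 and 20.3 RPKM in the controls and 22.4, 19.5 and 40.5 RPKM in the mutants (log2 fold change 0.54, SE 0.26, adjusted p = 0.22), with iPCKO 3 2.10-fold above the other 5 libraries and control 1 the lowest. With iPCKO 3 left out, the log2 fold changes of *Idi1* and *Fdps* were 0.25 and 0.22. *Fdps* also shares 7512 bases with *Gm43738*, a same-strand gene model that is not in the tables.

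The other mevalonate enzymes were close to level between the groups. *Acat2*, a cytosolic acetoacetyl-CoA thiolase, ran from 4.05 to 5.39 RPKM in the controls and from 4.09 to 5.37 RPKM in the mutants (log2 fold change 0.04, interval -0.29 to 0.37). Mevalonate kinase, *Mvk*, was at 7.99, 8.15 and 7.88 RPKM and 8.73, 6.67 and 8.89 RPKM (log2 fold change 0.0, interval -0.27 to 0.28). Phosphomevalonate kinase, *Pmvk*, was at 12.2, 12.1 and 13.1 RPKM and 13.1, 11.5 and 11.9 RPKM (-0.04, interval -0.24 to 0.16). For *Mvk* and *Pmvk* these 95% intervals hold no change beyond 0.28 in size on the log2 scale, so a difference as large as that of *Scap* lies outside them. *Mvd*, the mevalonate diphosphate decarboxylase, was at 2.88, 3.32 and 3.22 RPKM in the controls and 3.78, 3.05 and 3.86 RPKM in the mutants (log2 fold change 0.17, SE 0.13, adjusted p = 0.41), again with iPCKO 2 inside the control range and a value of 0.11 without iPCKO 3.

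Squalene and lanosterol are made by 3 enzymes, all highest in iPCKO 3 and lowest in control 1. *Fdft1*, the squalene synthase, was at 5.73, 7.98 and 7.04 RPKM in the controls and 7.17, 6.67 and 10.9 RPKM in the mutants (log2 fold change 0.23, SE 0.19, adjusted p = 0.48). *Sqle*, the squalene epoxidase and a rate-limiting step, was at 4.19, 5.28 and 5.46 RPKM and 6.75, 5.19 and 9.95 RPKM (log2 fold change 0.50, SE 0.22, adjusted p = 0.16). *Lss*, the lanosterol synthase, was at 1.11, 1.46 and 1.41 RPKM and 1.24, 1.15 and 2.13 RPKM (log2 fold change 0.13, SE 0.24, adjusted p = 0.77). In all 3 the mutants overlapped the controls, and without iPCKO 3 the log2 fold changes were 0.01, 0.25 and -0.13. The gene of *Fdft1* shares 774 bases with *Ctsb* on the opposite strand, a lysosomal protease gene with a mean of 67.8 RPKM in the controls and 90.4 RPKM in the mutants, and whether the counting used strand is not given in the sources used here.

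From lanosterol to cholesterol 8 genes were followed, and some were led by iPCKO 3 while others were higher in every mutant. *Cyp51*, the lanosterol demethylase, was at 5.35, 7.24 and 8.18 RPKM in the controls and 7.48, 6.23 and 12.4 RPKM in the mutants (log2 fold change 0.29, SE 0.25, adjusted p = 0.49), and without iPCKO 3 its log2 fold change was 0. *Msmo1*, which oxidizes methyl groups of the sterol ring, was at 2.22, 2.45 and 2.96 RPKM and 3.69, 2.36 and 6.4 RPKM (log2 fold change 0.58, SE 0.31, adjusted p = 0.24). As in *Idi1*, iPCKO 3 was 2.34-fold above the mean of the other libraries and iPCKO 2 within the controls, and without iPCKO 3 the log2 fold change was 0.22. *Nsdhl*, an X-linked dehydrogenase of the same demethylation, was at 4.32, 5.09 and 5.32 RPKM and 4.82, 4.97 and 6.61 RPKM (log2 fold change 0.14, SE 0.14, adjusted p = 0.56). *Sc5d*, the sterol desaturase, was at 4.71, 3.89 and 4.78 RPKM and 4.93, 3.98 and 7.98 RPKM (log2 fold change 0.27, SE 0.23, adjusted p = 0.47). Both had a log2 difference of 0 once iPCKO 3 was left out. *Tm7sf2*, a sterol reductase, was at 0.57, 0.63 and 0.64 RPKM and 0.57, 0.62 and 0.91 RPKM, under the filter of 1 RPKM in 3 libraries, so it was not tested, and about 48 to 107 reads stood behind its values.

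The groups did not overlap in 3 of these late enzymes, all higher in the mutants. They are 3 of the 17 enzymes tested (17.6%, against 18.3% of all genes). *Ebp*, the X-linked sterol isomerase, had levels of 4.99, 5.96 and 5.96 RPKM in the controls and 8.63, 7.51 and 7.11 RPKM in the mutants, with means of 5.64 ± 0.563 RPKM in the controls and 7.75 ± 0.789 RPKM in the mutants (SD, n = 3). All 3 mutants were above all controls, here with iPCKO 1 the highest and iPCKO 3 the lowest mutant. The log2 fold change was 0.45 (95% interval 0.19 to 0.71, adjusted p = 0.031), past the looser threshold of 0.05 but below the fold threshold. *Hsd17b7*, a ketosterol reductase, was at 3.71, 3.3 and 3.33 RPKM and 5.75, 3.82 and 5.73 RPKM (log2 fold change 0.53, SE 0.16, adjusted p = 0.064), with iPCKO 1 and 3 alike and iPCKO 2 just above control 1. *Dhcr7*, which makes cholesterol from its last precursor, was at 2.7, 3.05 and 2.71 RPKM and 3.41, 3.09 and 4.95 RPKM (log2 fold change 0.40, SE 0.17, adjusted p = 0.17), with iPCKO 2 little above control 2 and a value of 0.20 without iPCKO 3. Over all 27 tested members, 7 were higher in every mutant than in any control (25.9%, against 18.3% of all genes) and 0 were lower in every mutant (17.1% of all genes). Those 7 are *Hsd17b7*, *Ebp*, *Dhcr7*, *Srebf1*, *Scap*, *Stard4* and *Abcg1*.

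**Figure D2:**
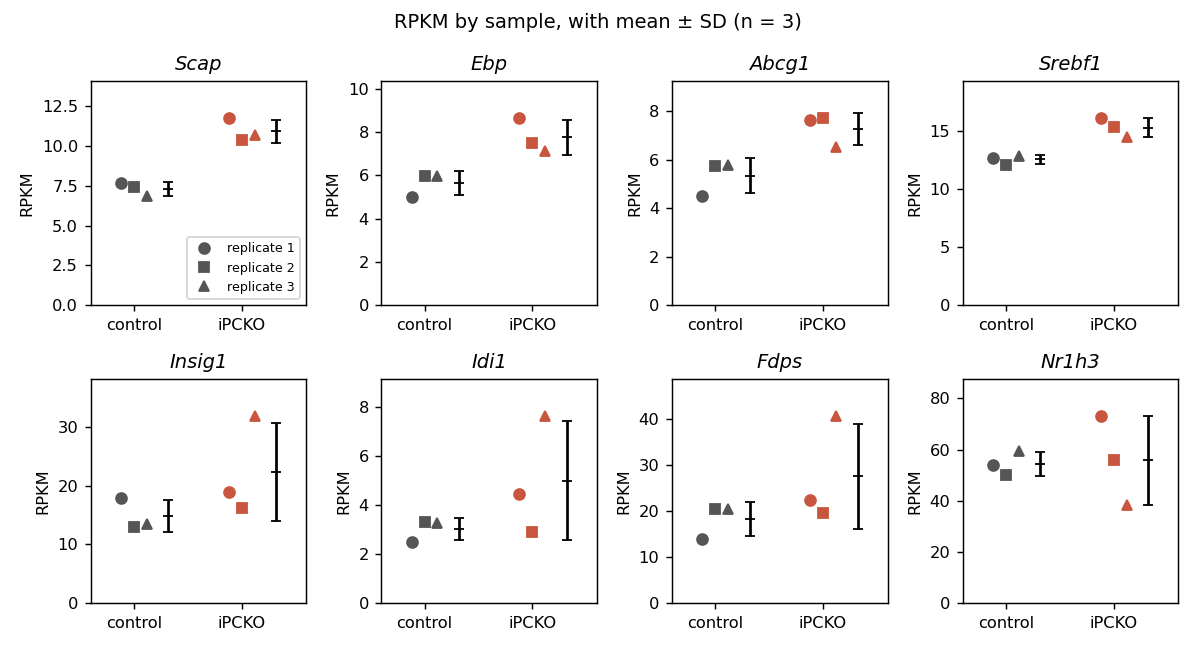
RPKM of 8 sterol genes in each library, with grey points for the 3 controls, red points for the 3 iPCKO mice, the marker shape for the replicate number, and a tick with whiskers for the mean and SD (n = 3). *Scap*, *Ebp*, *Abcg1* and *Srebf1* in the upper row have mutants wholly above the controls, while *Insig1*, *Idi1* and *Fdps* are far highest in iPCKO 3 and *Nr1h3* is lowest in that library.

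The 5 genes of the SREBP system all had positive fold changes, and *Scap* was the gene that rose. *Scap* encodes the escort protein that carries SREBPs to the Golgi and lies on GRCm38 at chr9:110333288-110384950. Its levels were 7.67, 7.44 and 6.83 RPKM in control 1, 2 and 3 and 11.7, 10.3 and 10.7 RPKM in iPCKO 1, 2 and 3, and the means were 7.31 ± 0.436 RPKM in the controls and 10.9 ± 0.723 RPKM in the mutants (SD, n = 3). The lowest mutant stood well above the highest control. The log2 fold change was 0.57 (SE 0.09, 95% interval 0.36 to 0.78, adjusted p = 0.0043, limma), a ratio of mean RPKM of 1.49. Unlike the enzymes led by iPCKO 3, its rise was as large without that library, at 0.59. The adjusted p was 0.011 to 0.025 when control 2, control 3 or any mutant was left out, with a log2 fold change of 0.52 to 0.61, so the call at 0.01 needed these 5 libraries. With the Y-linked level as a term the value was 0.54 (adjusted p = 0.10), and with the leukocyte level as a term, which itself separates the groups, 0.68 (adjusted p = 0.38). A transcript of the annotation, *5830462I19Rik*, covers 3383 bases of the gene on the opposite strand and is not in the tables.

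*Srebf1*, which encodes SREBP1, the form more tied to fatty acid synthesis, was at 12.7, 12.1 and 12.9 RPKM in the controls and 16.1, 15.3 and 14.5 RPKM in the mutants. The mutants did not overlap the controls and were even among themselves, with means of 12.6 ± 0.385 RPKM in the controls and 15.3 ± 0.809 RPKM in the mutants (SD, n = 3). Its log2 fold change was 0.28 (SE 0.08, interval 0.10 to 0.47, adjusted p = 0.052), short of both p thresholds and of the fold threshold. *Srebf2*, which encodes SREBP2, the form that drives cholesterol genes, was at 24.6, 23.9 and 23.9 RPKM and 28.1, 22.8 and 34.9 RPKM (log2 fold change 0.23, SE 0.14, adjusted p = 0.33). Here iPCKO 2 was the lowest of all 6 libraries and iPCKO 3 the highest, and without iPCKO 3 the value was 0.07. Both genes were measured as RNA, and how much of either protein was processed is not measured here.

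*Insig1* and *Insig2* encode the proteins that retain SCAP when sterols are plentiful, and *Insig1* is itself a classic SREBP target. *Insig1* was at 18, 12.99 and 13.5 RPKM in the controls and 18.9, 16.2 and 31.9 RPKM in the mutants (log2 fold change 0.54, SE 0.24, adjusted p = 0.17, interval 0.00 to 1.08). It followed the enzymes in iPCKO 3, 2.00-fold above the mean of the other libraries and with a log2 fold change of 0.26 without that library, but unlike them it had its highest control value in control 1. *Insig2* was at 8.05, 5.98 and 6.46 RPKM and 8.23, 8.22 and 7.49 RPKM (log2 fold change 0.23, SE 0.12, adjusted p = 0.24), with iPCKO 3 the lowest mutant and inside the control range.

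**Figure D3:**
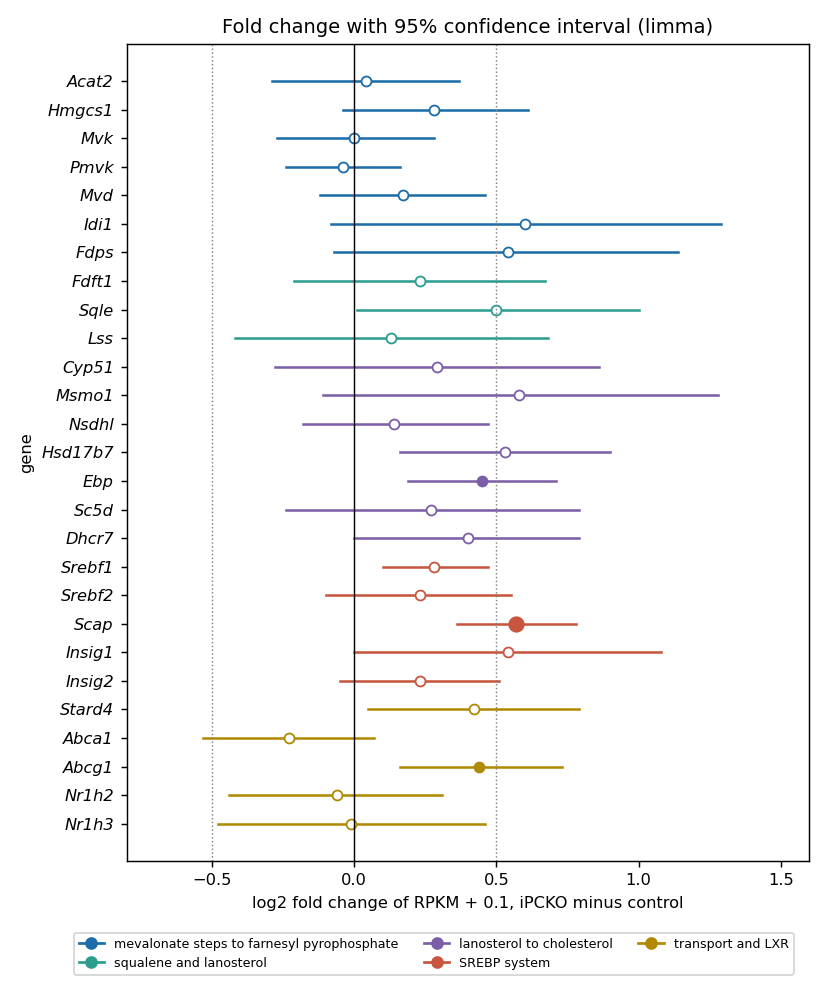
Log2 fold change of each of the 27 tested sterol genes, iPCKO minus control on log2(RPKM + 0.1), with the 95% confidence interval from limma as a line and colours for roles. Filled points passed an adjusted p of 0.05, the larger filled point is *Scap*, which passed both thresholds, and dotted lines mark a log2 fold change of 0.5 in either direction.

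Of the 5 genes of transport and LXR, none passed the thresholds, against 6.79% of all genes, and so short a list would hold few calls. *Stard4*, a carrier of cholesterol between membranes and an SREBP target, was at 3.71, 4.04 and 4.0 RPKM in the controls and 5.21, 4.19 and 6.71 RPKM in the mutants (log2 fold change 0.42, SE 0.16, adjusted p = 0.12). The groups did not overlap, and the mutants again stood in the order iPCKO 3, 1, 2, with a log2 fold change of 0.25 without iPCKO 3. *Abcg1*, an exporter of cholesterol to lipoproteins and a target of LXR, was at 4.52, 5.75 and 5.78 RPKM and 7.63, 7.71 and 6.52 RPKM, with means of 5.35 ± 0.723 RPKM in the controls and 7.29 ± 0.664 RPKM in the mutants (SD, n = 3). All mutants were above all controls, iPCKO 3 was the lowest mutant, and the log2 fold change was 0.44 (SE 0.13, interval 0.16 to 0.73, adjusted p = 0.047). Macrophages are rich in *Abcg1*, and 8 of the 8 tested macrophage markers were higher in every mutant, against 18.3% of all genes. The summed level over the 9 listed was 104 to 176 RPKM in the controls and 346 to 551 RPKM in the mutants, with none at 0 in all libraries. Their part in the value of *Abcg1* was not tested.

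The other genes of this role did not follow. *Abca1*, the exporter that loads apolipoproteins and the best-known LXR target, was at 13.3, 13.4 and 14.3 RPKM in the controls and 10.5, 14.5 and 10.4 RPKM in the mutants (log2 fold change -0.23, SE 0.13, adjusted p = 0.29), with iPCKO 1 and 3 below all controls and iPCKO 2 above them. *Nr1h3*, which encodes LXR alpha, was the most abundant gene of the 28 per length, at 53.9, 50.2 and 59.5 RPKM and 73.1, 55.9 and 38.3 RPKM (log2 fold change -0.01, SE 0.21, adjusted p = 0.98). The mutants spread on both sides of the controls, iPCKO 1 the highest and iPCKO 3 the lowest of all 6. *Nr1h2*, which encodes LXR beta, was at 19.2, 14.1 and 14.5 RPKM and 16.5, 17.3 and 12.1 RPKM (log2 fold change -0.06, SE 0.16, adjusted p = 0.84). Without iPCKO 3 the log2 fold changes of *Abca1*, *Nr1h3* and *Nr1h2* were -0.15, 0.23 and 0.10. All 3 had their lowest value in iPCKO 3, the library in which 16 of the 27 tested members had their highest.

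**Figure D4:**
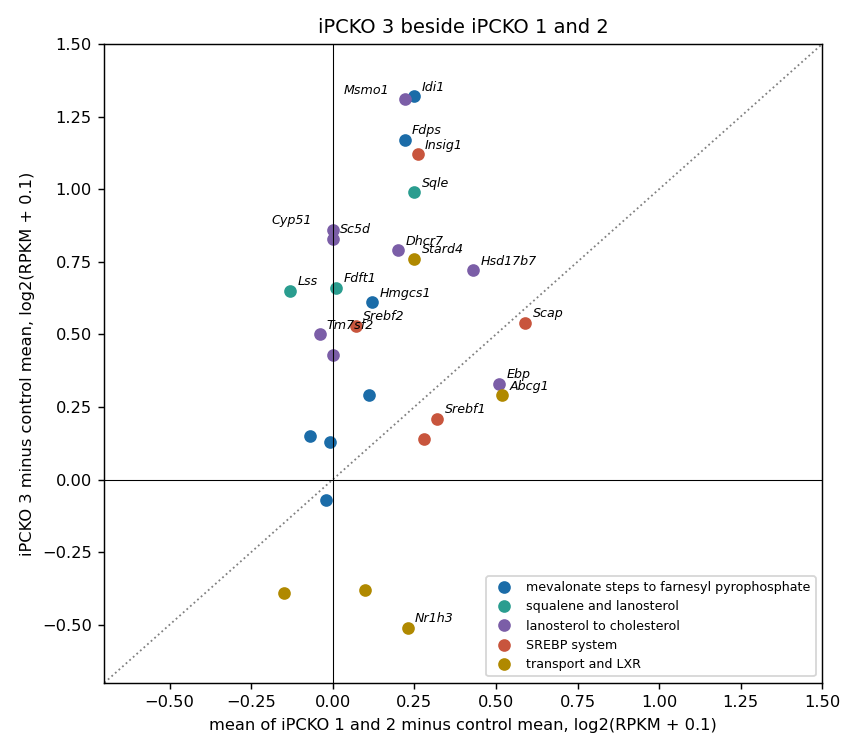
Difference from the control mean on log2(RPKM + 0.1) for each of the 28 sterol genes, in iPCKO 3 on the y axis and in the mean of iPCKO 1 and 2 on the x axis, with colours for roles and a dotted line where both are equal. *Idi1*, *Msmo1*, *Fdps*, *Insig1* and *Sqle* lie far above the line, *Scap*, *Ebp*, *Abcg1* and *Srebf1* lie a little below it, and *Abca1*, *Nr1h2* and *Nr1h3* have negative values in iPCKO 3.

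The neighbours of the pathway were followed in 97 further genes, grouped by function, of which 86 were tested. Among them 2 passed the thresholds (2.33%, against 6.79% of all genes), 1 higher and 1 lower, and 9 passed at an adjusted p below 0.05 (10.5%, against 15.2%). The list of isoprenoid and side-branch enzymes, which make ubiquinone, dolichol and prenyl groups, had 16 tested genes, 0 past the thresholds, 1 with an unadjusted p below 0.05 (6.25%, against 29.7% of all genes) and a median log2 fold change of 0. None of the 20 tested genes of SREBP processing and sterol-sensing turnover passed, with a median of -0.01 and 1 unadjusted p below 0.05 (5.0%, against 29.7%). With 6.79% of all genes called, a list of 16 or 20 genes would hold few calls. Their lack is therefore no result about the enzymes, proteases and ubiquitin ligases of these lists.

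Fatty acid synthesis and desaturation, the genes most tied to SREBP1, had a median log2 fold change of 0.17 over 17 tested genes, and 8 of the 17 (47.1%) were higher in every mutant than in any control, against 18.3% of all genes. *Elovl6*, which elongates palmitate, rose from 1.77, 1.83 and 2.13 RPKM in the controls to 4.24, 3.18 and 4.8 RPKM in the mutants (log2 fold change 1.04, SE 0.16, adjusted p = 0.004). Its adjusted p was 0.01 to 0.017 without any 1 library other than iPCKO 2, which ended the call, and 0.062 and 0.46 with the Y-linked and the leukocyte term. Of the 17 tested genes 1 was called (5.88%, against 6.79% of all genes) and 3 passed the looser threshold (17.6%, against 15.2%). Beside *Elovl6* these were *Scd1*, the stearoyl-CoA desaturase (log2 fold change 0.71, SE 0.20, adjusted p = 0.045), and *Lpin1*, a phosphatidate phosphatase (log2 fold change 0.51, SE 0.11, adjusted p = 0.017). Both were higher, and they are named here after their values were seen. In iPCKO 3, 11 of the 17 were highest (64.7%, against 15.7% of all genes), and 12 were lowest in control 1 (70.6%, against 19.7%). These are the same libraries as for the sterol enzymes, but the order of the mutants differed. The enzymes' order, iPCKO 3 above iPCKO 1 above iPCKO 2, was found in 6 of the 17 (35.3%, 8.77% of all genes). The order of the leukocyte markers, iPCKO 3 above iPCKO 2 above iPCKO 1, was found in 7 (41.2%, 18.1% of all genes). Alveolar type 2 cells make much of this lipid for surfactant, and 5 of their 9 markers were higher in every mutant (55.6%, against 18.3% of all genes). The summed level of the 9 was 575 to 635 RPKM in the controls and 692 to 777 RPKM in the mutants, with none at 0 in all libraries. Of these 9, 6 were lowest in control 1 (66.7%, against 19.7% of all genes) and 4 highest in iPCKO 3 (44.4%, against 15.7%). Their part was not tested.

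**Figure D5:**
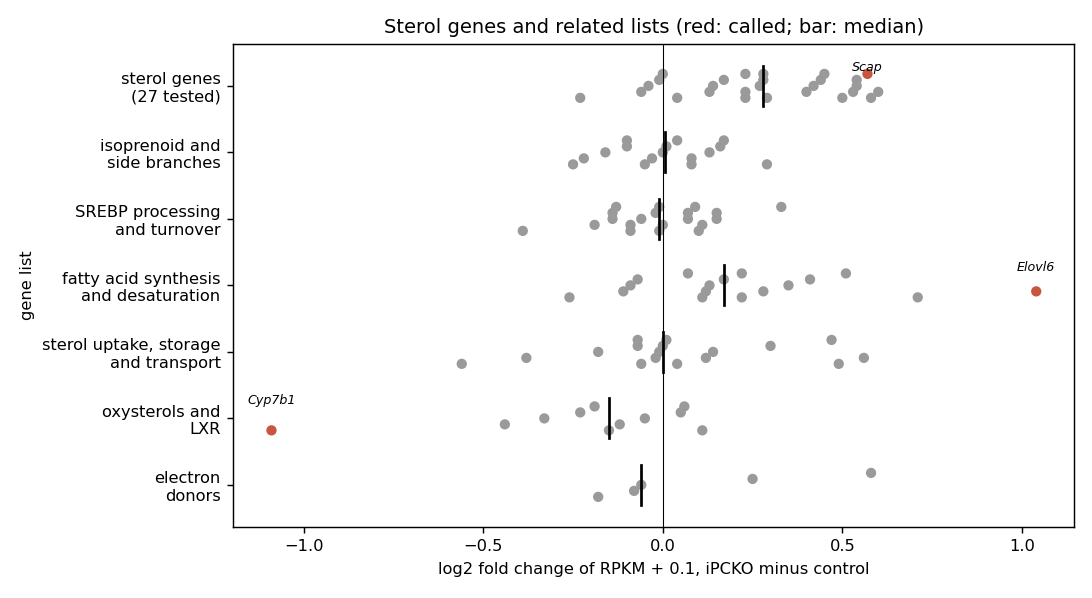
Log2 fold change, iPCKO minus control on log2(RPKM + 0.1), of each tested gene in the set of sterol genes and in 6 related lists, with red points for genes that passed both thresholds and a black bar for each list's median. The sterol genes have the highest median, 0.28, followed by fatty acid synthesis at 0.17, and the red points are *Scap* and *Elovl6* on the higher side and *Cyp7b1* on the lower side.

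Genes of sterol uptake, storage and intracellular transport had values in both directions and a median of 0. Of the 17 tested, 0 passed the thresholds, against 6.79% of all genes, and a list of this length would hold few calls. At an unadjusted p below 0.05 there were 6 (35.3%, against 29.7% of all genes). At the looser threshold 4 of 17 passed (23.5%, against 15.2% of all genes), and they are named after their values were seen. *Scarb1*, the receptor for high-density lipoprotein, was at 5.4, 4.8 and 5.07 RPKM in the controls and 7.48, 6.22 and 7.65 RPKM in the mutants (log2 fold change 0.47, adjusted p = 0.022). *Tmem97*, which binds the lysosomal cholesterol exporter NPC1, was at 8.89, 10.1 and 10.7 RPKM and 15.2, 12.04 and 16.8 RPKM (0.56, adjusted p = 0.025). *Lipa*, the lysosomal acid lipase that frees cholesterol from its esters, was lower at 40.8, 44.6 and 47.6 RPKM and 34.9, 35.5 and 31.6 RPKM (-0.38, adjusted p = 0.028), as was *Osbpl5*, an oxysterol-binding lipid transfer protein, at 33.1, 25.4 and 25.8 RPKM and 21.4, 19.02 and 16.6 RPKM (-0.56, adjusted p = 0.025). In these 4 genes, picked by their adjusted p, no mutant overlapped the controls. Over the whole list 4 of 17 were higher in every mutant than in any control (23.5%, against 18.3% of all genes). Lower in every mutant were 2 of 17, against 17.1% of all genes.

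The list of oxysterol synthesis, LXR partners and other LXR targets had 11 tested genes of 17 and a median of -0.15. Of the 11, 8 were negative (6019 of 12034 over all genes) and 1 was called (9.09%, against 6.79% of all genes). *Cyp7b1*, the hydroxylase that inactivates oxysterols such as the ligands of LXR, fell from 4.47, 5.59 and 5.26 RPKM in the controls to 1.79, 2.67 and 2.69 RPKM in the mutants (log2 fold change -1.09, SE 0.17, adjusted p = 0.0038), with no overlap. The adjusted p was 0.017 without control 2 and 0.02 without control 3, and 0.044 and 0.099 with the Y-linked and the leukocyte term, all short of the call. The cytochromes and reductases that supply electrons to the sterol oxygenases gave 0 calls among 5, against 6.79% of all genes, and in so short a list the lack is no result. Of these *Cyb5r3*, the cytochrome b5 reductase, passed the looser threshold, at 45.2, 34.3 and 34.3 RPKM and 55.04, 57.1 and 56.7 RPKM (log2 fold change 0.58, SE 0.12, adjusted p = 0.013), and it is named after its values were seen. Its mutants were even, between 55.0 and 57.1 RPKM, and control 1 was the highest control, the opposite of the place that control 1 held for the enzymes of the main pathway.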

How the data were processed

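The authors made stranded total RNA libraries from the immunoprecipitated RNA, mapped paired reads to mm10 with TopHat, counted them with HTSeq 0.6.1 and, per the labels, used DESeq2, and they deposited RPKM for 21603 genes in each of the 6 samples. Their exon lengths and annotation version are not given in the sources used here. Only 75.3 to 77.1% of low values were whole multiples of 1 read (within 0.02 reads), so no count test was run.

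The 12034 genes that reached 1 RPKM in 3 or more of the 6 samples were tested with limma 3.58.1 (R 4.3.3, lmFit and eBayes with an intensity trend) on log2(RPKM + 0.1), which understates the change of low genes, with Benjamini-Hochberg adjustment. Calls needed an adjusted p under 0.01 and a log2 fold change over 0.5 in size. The fit was tested on simulated data. An exact permutation test of 3 against 3 cannot go below p = 0.1, so none is given. Symbols of 21375 genes and coordinates came from GENCODE M21 (GRCm38). The members and lists were chosen with earlier results of these data known. Named were the members, the deleted genes, the called genes of each related list (at most 5 a list) and, beyond this rule, genes said to be named after their values were seen. The 16 refits covered the filter, pseudocount, scaling, intensity trend, left-out samples, the replicate block and 2 covariates, and the thresholds were varied as well. A gene of the related lists is not reported here.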

Additional observations from a re-analysis of the deposited data

How the results depend on the processing

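Of the 28 genes 1, *Scap*, was called with the replicate block, without control replicate 1, with no filter or a filter in all 6 samples, with a pseudocount of 1 or 0.01, with median-ratio scaling, with quantile normalization and without the intensity trend. The count was 0 to 1 when each sample was left out in turn, 0 with the Y-linked or the leukocyte level as a covariate, 3 at an adjusted p below 0.05 with no minimum fold and 0 at an absolute log2 fold change above 1. At an adjusted p below 0.05, *Abcg1* was lost with the replicate block (0.054), no filter (0.07) and no trend (0.058), *Hsd17b7* was gained with the block (0.038), *Srebf1* was gained with median-ratio scaling (0.04) and quantile normalization (0.045), and 0 members passed with either covariate. Genes called over all tested genes numbered 382 to 899 with a sample left out (382 without control 3, 414 without iPCKO 2, 499 without iPCKO 3), 119 with the Y-linked and 3 with the leukocyte covariate, 1824 at an adjusted p below 0.05 and 411 at a log2 fold change above 1. Calls in the related lists, 2 as reported, numbered 4 with the replicate block and with quantile normalization, 0 to 2 with a sample left out (0 without control 2 or 3, 1 without iPCKO 1 or 3), 0 with either covariate and 9 at the looser threshold. Replicate numbers did not pair the samples: same-numbered samples correlated at 0.24, 0.09 and 0.02 and others at -0.3 to 0.27, and the block gave 922 calls over all genes against 817.

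With the leukocyte covariate, which separates the groups, log2 fold changes turned negative for *Acat2* (-0.08), *Hmgcs1* (-0.11), *Idi1* (-0.33), *Fdps* (-0.61), *Fdft1* (-0.72), *Sqle* (-0.17), *Lss* (-0.85), *Cyp51* (-0.54), *Msmo1* (-0.12), *Nsdhl* (-0.41), *Sc5d* (-0.21), *Dhcr7* (-0.35), *Srebf2* (-0.08) and *Insig1* (-0.12) and positive for *Pmvk* (0.23), *Nr1h2* (0.61) and *Nr1h3* (1.31), and the members' median was -0.08. None of these passed in any direction, with adjusted p of 0.16 to 0.97. With the Y-linked covariate the members' median was 0.31 and 23 of 27 were positive, and the sign turned for *Acat2* (-0.15), *Lss* (-0.01), *Pmvk* (0.01), *Nr1h2* (0.10) and *Nr1h3* (0.11). With a sample left out it turned for *Acat2* (-0.07 to 0.16), *Lss* (-0.13 to 0.29), *Nr1h2* (-0.16 to 0.10) and *Nr1h3* (-0.23 to 0.23). *Mvk*, at 0.0 as reported, ran from -0.07 to 0.14 with a sample left out and was -0.03 with the Y-linked covariate. The cause was not tested. With 3 mice a group, the median standard error of the members was 0.161 on the log2 scale against 0.118 over all genes, which limits what could pass.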
